A study of Mus musculus with 6 samples.

Results

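The genes described here encode glycosyltransferases, the enzymes that transfer single sugars onto proteins, lipids and growing glycan chains, together with the sulfotransferases that decorate those chains. They were chosen by symbol only. Every gene was taken whose symbol began with Mgat, Chst, B3gnt, B3galt, B4galt, B4galnt, Galnt, St3gal, St6gal, St8sia, Hs2st, Hs3st, Hs6st, Ndst, Chsy, Chpf, Xylt, Gcnt, Poglut or Pofut, with Fut or Alg and a number, or with Ext1, Ext2 or Extl. This rule found 74 of the 14774 genes in the deposited table, and no measured value was used in it. It was, however, set with earlier results of these data known. All 74 are annotated as protein coding. The libraries came from 2 untreated mouse cell lines of testicular origin, with 3 libraries each. MA-10 is a wild type tumor Leydig cell line, and Leydig cells are the steroid-producing cells of the testis. STARKO1 is a clone that was grown from a single MA-10 cell after CRISPR/Cas9 cleavage in exon 2 of Star, the gene for the steroidogenic acute regulatory protein. The knockout is therefore represented by 1 clone, and a difference between the lines cannot be told apart from a difference that this clone had for other reasons. The methods speak in general of independent experiments run in triplicate but do not name the sequencing libraries, and the labels do not say whether the libraries of a line came from separate cultures, so the p-values measure only the spread between these samples.

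Glycans are built in order along the secretory pathway. In the endoplasmic reticulum, the Alg enzymes assemble an oligosaccharide on the lipid dolichol, and this is moved to asparagine residues of new proteins. In the Golgi, the Mgat enzymes add branches to these N-glycans, the Galnt enzymes start O-glycans on serine and threonine, and galactosyl-, fucosyl- and sialyltransferases extend and cap both kinds of chain. A separate set of Golgi enzymes builds chondroitin, dermatan and heparan sulfate on proteoglycans, where sulfotransferases of the Chst, Ndst and Hs families set the sulfation pattern. Many hormone receptors and secreted proteins of Leydig cells carry such chains, and the gonadotropins that act on these cells are themselves glycoproteins.

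The total count per library lay between 14114349 and 19530054, and a detection floor of 3 counts was 0.264 CPM or less in each library. Levels are in CPM, that is, counts on a common library size set by edgeR's TMM method, with the SD over 3 libraries. MA-10 replicate 1 stood apart from the other MA-10 libraries. Across genes, which are not independent replicates, its log2 CPM correlated at r = 0.802 and 0.874 with MA-10 replicates 2 and 3, but at 0.949 to 0.955 with the STARKO1 libraries. The noncoding 7SL RNA took 14.4% and 6.63% of the counts of MA-10 replicates 2 and 3, and between 1.81% and 2.37% of the counts of each of the other libraries. Results are therefore also given without MA-10 replicate 1. The targeted gene matched the labels, as Star had 1064, 1261 and 697 counts in MA-10 and 48, 46 and 36 counts in STARKO1 cells. Of the 9 Leydig cell markers, 9 were in the table, with a summed level of 2054 to 2699 CPM in MA-10 and 1694 to 1770 CPM in STARKO1 libraries. These markers did not move together, since Hsd3b1 fell from 29.8 to 5.19 CPM (log2 fold change -2.52, adjusted p = 0.00268), while the estimates of Cyp11a1 and Hsd3b6 were -0.93 each and those of Nr5a1 and Cyp17a1 were 0.42 and 1.27, none of these 4 called. Of 4 markers each, 1 of Sertoli cells (Dhh), 1 of germ cells (Ddx4) and 2 of macrophages (Csf1r and Cd68) were listed, with summed levels of 16.9 to 20.2, 1.91 to 3.55 and 4.86 to 9.85 CPM over all libraries. The 2 listed endothelial markers summed to 26.4 to 41.5 CPM in MA-10 and 118 to 124 CPM in STARKO1 libraries, nearly all of it Cdh5, while Pecam1 was at 0.423 and 0.729 CPM. The 2 listed myoid markers, mainly Des, summed to 13.0 to 20.5 and 1.72 to 2.59 CPM, and the part of other cell types in the results was not tested. Both lines are cultured and STARKO1 was grown from a single cell, so these sums describe levels of genes and not shares of cell types. In bulk RNA, fewer cells that express a gene and less RNA per cell cannot be told apart.

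The members with the smallest p were a gene of a branching enzyme family and a sulfotransferase gene. In STARKO1 cells, Mgat4c, a member of the Mgat4 family of N-glycan branching enzymes, was lower and Chst2, a sulfotransferase that adds sulfate to N-acetylglucosamine, was higher, each with little spread. The counts of Chst2 in MA-10 were low, at 18 to 29. Of the 69 members that passed the filter on low counts, 12 passed edgeR's quasi-likelihood test after Benjamini-Hochberg adjustment over all genes (adjusted p under 0.05, written as called in what follows), which is 17.4% of them against 9.04% of all 11939 genes tested. The 8 higher members were Chst2, Chst3, Chst12, Hs3st1, B3galt6, St3gal6, Galnt10 and Fut8, against 4.3% of all genes that were higher. The 4 lower members were Mgat4c, B4galt2, St6galnac2 and Gcnt4, against 4.74% of all genes. The estimated change was at least 2-fold for 11 of the 12. With an unadjusted p under 0.05 there were 28 members, 17 higher and 11 lower, where 37.6% of all genes passed, 15.0% higher and 22.7% lower. In 34 members, 22 higher and 12 lower, the libraries of the lines did not overlap, as in 42.5% of all genes, 21.5% higher and 21.0% lower. DESeq2 called 23 members and 28.4% of all genes, and scaling by library size alone gave 7 calls and 2.76% of all genes. The median log2 fold change, STARKO1 over MA-10, was 0.20 for the members and -0.05 for all genes. B3gnt3, B3gnt6, B3gnt8, B4galnt1 and Hs3st6 did not pass the filter and were not tested. Hs3st1, B3galt6 and Chst12 passed it only through the STARKO1 libraries, where they were high, so their calls depend on the filter. With at least 10 counts required in every library, they were not tested.

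The differentially expressed members were not the abundant ones. On the scale of CPM per kilobase of exon, which allows levels of different genes to be compared, their median level was 1.07, against 4.63 for the other tested members. Their highest level was that of Galnt10 at 4.10, and 32 of the 57 other tested members lay above it. Of the members with the highest level in each of 11 classes by role, among them Mgat4b, St3gal5, Galnt2, Ext2 and Alg1, 1 was called, Gcnt4, the single member of its class.

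**Figure D1:**
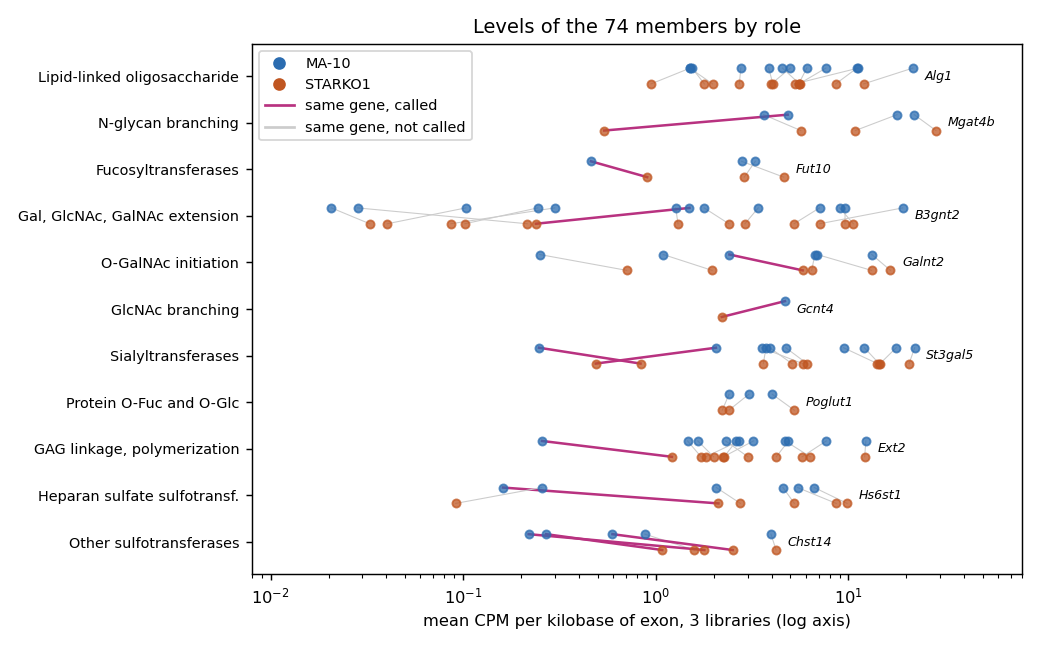
Mean level of each of the 74 members in MA-10 (upper point of a pair) and STARKO1 cells (lower point), in CPM per kilobase of exon on a log axis, in rows by role of the enzyme. Lines join the points of 1 gene, the 12 differentially expressed members have the darker lines, and the member with the highest level in each row is named. Most of the darker lines lie to the left of the abundant members.

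The start regions of a group of members that rose and of the member that fell with the smallest p are shown to give the sequence context of these genes. These are the 250 bases before the RefSeq start of Chst2, Chst12 and Chst3, which share the Chst symbol and were all higher, and of Mgat4c, which was lower. The sequences are from RefSeq on build GRCm38.p6 and run 5′ to 3′ on the strand of the gene. They lie at chr9:95407271-95407520 on the minus strand for Chst2, chr5:140505359-140505608 on the plus strand for Chst12, chr10:60219261-60219510 on the minus strand for Chst3 and chr10:101681237-101681486 on the plus strand for Mgat4c. Capitals mark matches, on either strand, to the GC box GGGCGG and the CCAAT box (CCAAT or its reverse complement).
Chst2: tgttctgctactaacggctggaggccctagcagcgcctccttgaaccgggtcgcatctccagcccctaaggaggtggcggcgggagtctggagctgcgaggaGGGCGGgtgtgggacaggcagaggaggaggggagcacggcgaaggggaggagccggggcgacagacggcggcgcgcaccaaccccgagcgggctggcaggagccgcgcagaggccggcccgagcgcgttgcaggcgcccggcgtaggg
Chst12: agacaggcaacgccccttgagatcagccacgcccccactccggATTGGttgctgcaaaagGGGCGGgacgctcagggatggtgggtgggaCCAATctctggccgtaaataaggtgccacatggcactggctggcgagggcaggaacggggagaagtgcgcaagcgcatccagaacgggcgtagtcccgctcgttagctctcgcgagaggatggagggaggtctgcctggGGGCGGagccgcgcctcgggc
Chst3: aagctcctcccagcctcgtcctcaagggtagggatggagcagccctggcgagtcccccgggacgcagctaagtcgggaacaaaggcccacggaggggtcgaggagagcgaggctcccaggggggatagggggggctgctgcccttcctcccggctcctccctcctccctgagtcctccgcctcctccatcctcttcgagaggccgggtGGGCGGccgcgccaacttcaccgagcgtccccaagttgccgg
Mgat4c: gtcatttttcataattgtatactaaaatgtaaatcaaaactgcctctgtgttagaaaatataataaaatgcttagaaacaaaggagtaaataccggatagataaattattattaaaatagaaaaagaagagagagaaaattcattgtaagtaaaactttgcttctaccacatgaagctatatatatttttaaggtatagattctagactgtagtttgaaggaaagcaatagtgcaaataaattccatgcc
The start regions of the Chst genes were rich in G and C, with 72.8%, 65.6% and 69.6% for Chst2, Chst12 and Chst3, whereas that of Mgat4c had 26.8%. Chst2 and Chst3 held 1 GC box each, and Chst12 held 2 GC boxes and 2 CCAAT boxes. The window shown for Mgat4c, at 1 of its 4 RefSeq starts, held none of the motifs searched. Over all 32851 start regions of the same length in the RefSeq table, 32.7% held GGGCGG and 33.8% held CCAAT. The motifs TATAAA (12.4% of all), AAGGTCA (4.08%) and TGACGTCA (1.55%) were also searched on both strands and had no match in the 4 regions. A start region was given for 56 of the 74 members, and 43 of these (76.8%) held a GC box in any of their regions. Of all 27025 genes with a region, 35.4% did, but these were not limited to expressed or protein-coding genes, so the sets are unlike. Among called members with a region, 5 of 8 higher and 3 of 3 lower members held a GC box. Mgat4c was 1 of these 3, so the window shown does not stand for all its starts. The RefSeq start lay 547 bases from the gene's start in the deposited table for Chst2, 59 for Chst12, 1 for Chst3 and 0 for Mgat4c, and RefSeq gives 4 starts for Mgat4c. A match of letters is a description of these windows and not a bound site.

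The assembly of the lipid-linked oligosaccharide was represented by 12 Alg genes, all of them tested and none called by edgeR. With no adjustment, 3 of them had a p under 0.05, all lower in STARKO1 cells, and DESeq2 called 3, also lower, shares near the 22.7% and 28.4% of all genes. EdgeR called 6 of the 12 without MA-10 replicate 1, 5 lower and 1 higher, near its 65.7% of all genes. Their median log2 fold change was -0.23, with 8 estimates under 0, where 6313 of all 11939 genes were under 0. The median turned to 0.20 when libraries were scaled by their size alone, a scaling that moved the median of all genes upward by 0.43. Alg1, which adds the first mannose and had the highest level of the class, had 38.6, 70.9 and 64.3 CPM in MA-10 and 31.0, 30.7 and 34.8 CPM in STARKO1 cells. All MA-10 libraries were above the STARKO1 libraries, with replicate 1 nearest to them, and the log2 fold change was -0.85 (SE 0.246, adjusted p = 0.0678). Without MA-10 replicate 1 it was -0.98 (adjusted p = 0.000151). Summed over the class, the level was 61.4, 86.1 and 87.4 CPM per kilobase in MA-10 and 56.8, 58.3 and 58.5 in STARKO1 cells.

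In the class of N-glycan branching, where Mgat4c was placed by its family, this gene had the largest fall of all members. Its enzyme activity was not measured. The level of Mgat4c was 46.6, 55.2 and 53.3 CPM in the MA-10 libraries and 5.94, 5.42 and 5.96 CPM in the STARKO1 libraries, from 605 to 814 and from 92 to 138 counts. The lines were far apart and MA-10 replicate 1 lay with its group. The mean went from 51.7 ± 4.49 to 5.77 ± 0.302 CPM (SD, n = 3 each), a log2 fold change of -3.16 (SE 0.163, adjusted p = 0.00116), and Mgat4c was called in all 6 fits that left out 1 library. The gene covers chromosome 10 of GRCm38 from 101681487 to 102391470 on the plus strand. Mgat4b, which carries out the Mgat4 branching step in many tissues and had the highest level per length of all members, was not called. It had 92.8, 42.2 and 44.0 CPM in MA-10 and 77.4, 76.7 and 77.9 CPM in STARKO1 cells, so that MA-10 replicate 1 was above and the other MA-10 libraries below the knockout line (log2 fold change 0.37, SE 0.319, adjusted p = 0.408, but 0.93 and 0.000170 without MA-10 replicate 1). Of the summed level of the class per kilobase, Mgat4c made up 7.69% to 12.03% in MA-10 and 1.14% to 1.21% in STARKO1 libraries. The remaining genes of the class were not called and went in opposite directions. Mgat1, which opens the first branch, had a log2 fold change of 0.64 (adjusted p = 0.109), and Mgat2, which opens the next, had -0.72 (adjusted p = 0.0663). All 4 were called without MA-10 replicate 1, Mgat1 and Mgat4b higher and Mgat2 and Mgat4c lower. That fit called 65.7% of all genes.

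Fut8 adds the core fucose of N-glycans next to asparagine. It had 4.18, 2.86 and 3.87 CPM in MA-10 and 6.71, 7.49 and 7.19 CPM in STARKO1 cells. The libraries did not overlap, and the mean rose 1.96-fold from 3.64 ± 0.690 to 7.13 ± 0.392 CPM (log2 fold change 0.96, SE 0.216, adjusted p = 0.0428). The call was kept in 1 of the 6 fits that left out 1 library, the one without MA-10 replicate 1 (log2 fold change 1.17, adjusted p = 0.00129). The gene lies on chromosome 12 from 77238125 to 77476339 on the plus strand. Fut10, the fucosyltransferase with the highest level, had 20.3, 9.97 and 11.6 CPM in MA-10 and 22.3 to 24.1 CPM in STARKO1 cells (log2 fold change 0.72, adjusted p = 0.113), and its paralog Fut11 had a log2 fold change of -0.19 (adjusted p = 0.555). When MA-10 replicate 1 was left out, Fut10 was called (1.19, adjusted p = 0.000155) and Fut11 turned to 0.15 (adjusted p = 0.418).

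**Figure D2:**
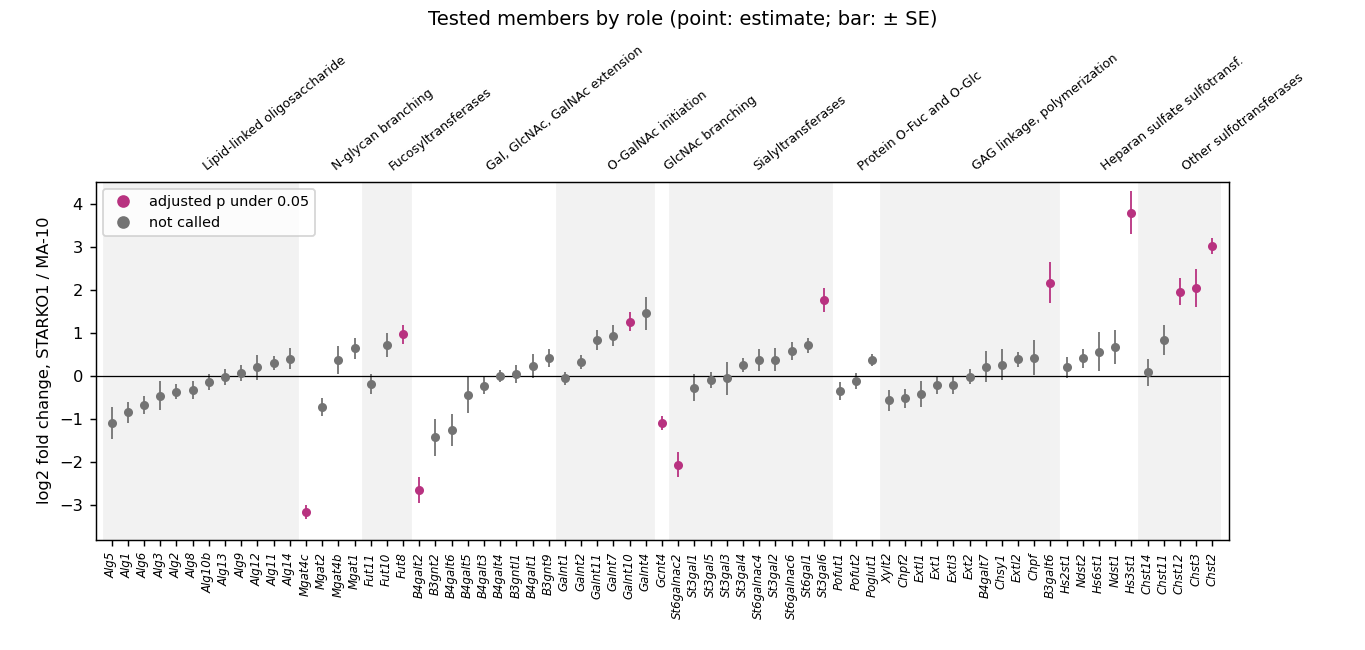
Log2 fold change, STARKO1 over MA-10, of the 69 tested members with bars of 1 standard error, grouped by role and ordered by value within a role. The darker points are the 12 members with an adjusted p under 0.05. All 5 estimates lie above 0 both for the heparan sulfate sulfotransferases and for the other carbohydrate sulfotransferases, where 5626 of all 11939 genes lie above 0.

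Mucin-type O-glycans are started by the Galnt enzymes, which transfer N-acetylgalactosamine to serine or threonine. Of the 6 tested, 1 was called, Galnt10, while 5 were higher in every STARKO1 library than in every MA-10 library, against 21.5% of all genes. Galnt10, which prefers peptides that already carry a sugar, had 18.3, 13.9 and 10.9 CPM in MA-10 and 31.7, 36.4 and 35.5 CPM in STARKO1 cells. The gap between the lines was wider than the spread within them, and the mean rose 2.40-fold from 14.4 ± 3.73 to 34.5 ± 2.50 CPM (log2 fold change 1.26, SE 0.220, adjusted p = 0.0235). It was called in 1 of the 6 fits that left out 1 library, again the one without MA-10 replicate 1 (log2 fold change 1.57). Galnt10 lies on chromosome 11 from 57645442 to 57787515 on the plus strand. Galnt4, an enzyme of similar preference, had 2.06, 0.781 and 0.969 CPM in MA-10 and 3.36, 3.83 and 3.60 CPM in STARKO1 cells (log2 fold change 1.45, SE 0.385, adjusted p = 0.0600). Its exons overlap those of Poc1b on the same strand, so that reads could have been divided between these genes. Galnt7 and Galnt11 had log2 fold changes of 0.94 and 0.83 (adjusted p = 0.0568 and 0.0661). Galnt2, the most abundant of the class per length, had 0.32 (adjusted p = 0.201), and Galnt1 had -0.05 (adjusted p = 0.805). The summed level of the class was 35.8, 28.6 and 27.2 CPM per kilobase in MA-10 and 45.0, 45.9 and 42.8 in STARKO1 cells. Without MA-10 replicate 1, 5 of the 6 were called, all higher, where 34.0% of all genes were called higher.

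O-glycans are branched by Gcnt4, which adds N-acetylglucosamine to the first galactosylated core. Gcnt4 had 22.4, 26.9 and 22.1 CPM in MA-10 and 11.0, 11.3 and 11.3 CPM in STARKO1 cells. Both lines were tight, and the mean fell from 23.8 ± 2.67 to 11.2 ± 0.153 CPM (log2 fold change -1.09, SE 0.157, adjusted p = 0.0133). It was called without MA-10 replicate 1 and without MA-10 replicate 2 but in none of the other 4 fits that left out 1 library. It lies on chromosome 13 from 96924689 to 96950907 on the plus strand, and it was the sole gene of its class in the table.

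Extension of both kinds of glycan with galactose and N-acetylglucosamine was represented by 13 genes, of which 9 were tested and 1 was called. B4galt2, a galactosyltransferase that builds lactosamine units, had 9.22, 8.33 and 5.02 CPM in MA-10 and 1.12, 1.41 and 1.07 CPM in STARKO1 cells. Every MA-10 library was several-fold above every STARKO1 library. The mean fell from 7.52 ± 2.21 to 1.20 ± 0.188 CPM (log2 fold change -2.65, SE 0.311, adjusted p = 0.00711), and the log2 fold change was -2.38 without MA-10 replicate 1. The call was lost without STARKO1 replicate 1 and without STARKO1 replicate 3. Its values were not whole in any of the 6 libraries. The gene, on chromosome 4 from 117869260 to 117883488 on the minus strand, shares exon bases with Ccdc24 on the same strand, which had 0.512 and 0.429 CPM in the lines, and with Slc6a9 on the other strand. How the counting treated such shared bases and the strand is not given in the sources used here, so the level of B4galt2 is uncertain.

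The more abundant galactosyltransferases of the class were not called. B4galt1, the main lactosamine-building enzyme of many cells, had a log2 fold change of 0.23 (adjusted p = 0.554), and B4galt4 had 30.9 ± 0.196 CPM in MA-10 and 30.8 ± 3.05 CPM in STARKO1 cells. Of the pair that makes lactosylceramide, the first complex step of most glycolipids, B4galt6 had 1.55, 1.56 and 1.14 CPM in MA-10 and 0.559, 0.825 and 0.393 CPM in STARKO1 cells (log2 fold change -1.26, SE 0.369, adjusted p = 0.0688). The more abundant B4galt5 had 51.9, 15.8 and 23.8 CPM in MA-10 and 19.9 to 24.3 CPM in STARKO1 cells, and the lines overlapped (log2 fold change -0.44, adjusted p = 0.447). The sign of B4galt5 rested on MA-10 replicate 1, as the estimate without it was 0.27 (adjusted p = 0.250). B3gnt2, which lengthens polylactosamine, had 34.1, 115 and 90.6 CPM in MA-10 and 31.1, 31.8 and 25.9 CPM in STARKO1 cells. Its MA-10 replicate 1 was close to the knockout line and the other MA-10 libraries were far above it. The log2 fold change was -1.43 (SE 0.419, adjusted p = 0.0688), and -1.70 (adjusted p = 3.4e-05) without that library. In that fit 6 of 10 tested genes of the class were called, 3 in each direction, near its 65.7% of all genes. B4galt1 had 0.71 (adjusted p = 0.000877) in it.

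The 10 sialyltransferases, which cap chains with sialic acid, split in direction, with 1 member higher and 1 lower. St3gal6, which acts on the galactose of lactosamine, had 1.09, 1.65 and 1.85 CPM in MA-10 and 5.94, 4.60 and 4.89 CPM in STARKO1 cells. The mean rose 3.36-fold, from 1.53 ± 0.394 to 5.14 ± 0.704 CPM (log2 fold change 1.77, SE 0.282, adjusted p = 0.0177, and 1.65 without MA-10 replicate 1), and the lines did not overlap. It lies on chromosome 16 from 58468125 to 58524244 on the minus strand and overlaps exons of Dcbld2 on the other strand, which had 48.4 ± 14.9 and 81.8 ± 7.49 CPM. St6galnac2, which adds sialic acid to the N-acetylgalactosamine at the root of O-glycans, had 8.02, 15.2 and 12.4 CPM in MA-10 and 3.23, 2.95 and 2.30 CPM in STARKO1 cells. The mean fell 4.20-fold, from 11.9 ± 3.61 to 2.83 ± 0.473 CPM (log2 fold change -2.06, SE 0.292, adjusted p = 0.0125, and -2.18 without MA-10 replicate 1), and MA-10 replicate 1 was the lowest of its line. It lies on chromosome 11 from 116675303 to 116694869 on the minus strand. Its overlapping neighbor on the other strand, 1810032O08Rik, also fell, from 5.98 to 2.35 CPM (log2 fold change -1.34, adjusted p = 0.0308), and without knowledge of the strand setting their reads cannot be told apart. Both sialyltransferases were called in 2 of the 6 fits that left out 1 library, those without MA-10 replicate 1 and without MA-10 replicate 2.

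St3gal5, which makes the ganglioside GM3 and had the highest level of the sialyltransferases per length, had 45.4, 66.2 and 61.7 CPM in MA-10 and 56.1, 50.9 and 55.1 CPM in STARKO1 cells. The lines overlapped, and the log2 fold change of -0.10 (adjusted p = 0.719) changed sign with the scaling. Per kilobase, the lines had 22.1 ± 4.18 and 20.6 ± 1.04 CPM. St6gal1, which caps N-glycans, had a log2 fold change of 0.70 (adjusted p = 0.0560) and St6galnac6 had 0.58 (adjusted p = 0.0949), and in both the lines did not overlap. The paralogs St3gal2 and St3gal3 had log2 fold changes of 0.38 and -0.06 (adjusted p = 0.334 and 0.920). With MA-10 replicate 1 left out they had 0.84 (adjusted p = 0.000543) and, with the sign turned, 0.64 (adjusted p = 0.00691). In that fit 7 of the 10 sialyltransferases were called, 6 of them higher, where 65.7% of all genes were called, 34.0% higher. The summed level of the class was 71.3 to 91.4 CPM per kilobase in MA-10 and 83.4 to 86.9 in STARKO1 cells.

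Pofut1, Pofut2 and Poglut1 put fucose or glucose directly on serine or threonine of small protein repeats such as those of the Notch receptors. None of the 3 was called by edgeR. Of the 3, 1 had an unadjusted p under 0.05, against 37.6% of all genes, and DESeq2 called 1, against 28.4% of all genes. That gene was Poglut1, with 18.3, 18.4 and 19.6 CPM in MA-10 and 24.4, 24.1 and 24.6 CPM in STARKO1 cells. The difference was small and both lines were tight (log2 fold change 0.38, SE 0.139, adjusted p = 0.103, and 0.00948 without MA-10 replicate 1). Pofut1 had a log2 fold change of -0.34 (adjusted p = 0.254) and Pofut2 had -0.12 (adjusted p = 0.637), which turned to 0.13 (adjusted p = 0.347) without MA-10 replicate 1.

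**Figure D3:**
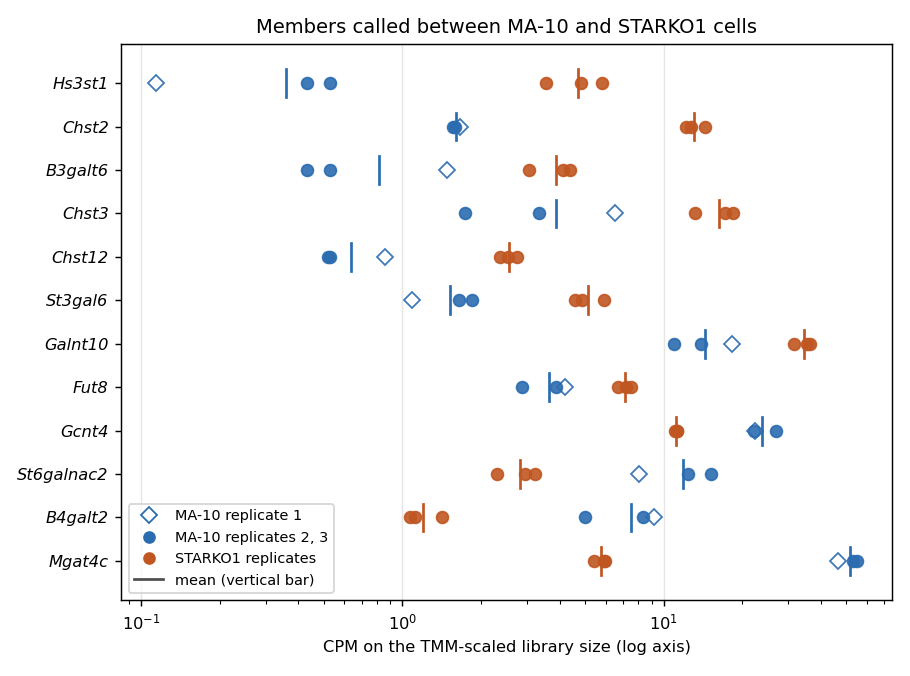
Level of the 12 differentially expressed members in each library, in CPM on the TMM-scaled library size (log axis). Open diamonds are MA-10 replicate 1, filled points are the other MA-10 and the STARKO1 libraries in separate colors, and vertical bars are the means of a line. For each gene the lines do not overlap, and MA-10 replicate 1 is the MA-10 library nearest to STARKO1 for Mgat4c, Chst2, B3galt6, Chst3, Chst12, Galnt10, Fut8 and St6galnac2, by small steps for Mgat4c and Chst2.

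Glycosaminoglycan chains start from a short linker on the core protein and are then polymerized. Of the 11 genes of these steps, 1 was called, B3galt6, which adds a galactose of the linker. It had 1.49, 0.434 and 0.528 CPM in MA-10 and 4.13, 3.07 and 4.38 CPM in STARKO1 cells, from 5 to 26 and from 52 to 96 counts. Although counts in MA-10 were low, the lines did not overlap, and the mean rose 4.72-fold from 0.817 ± 0.584 to 3.86 ± 0.699 CPM (log2 fold change 2.16, SE 0.472, adjusted p = 0.0403). MA-10 replicate 1 was the MA-10 library nearest to STARKO1, the log2 fold change was 3.08 without it, and this was the only fit of the 6 leaving out 1 library in which the gene was called. B3galt6 passed the filter only through the STARKO1 libraries. With at least 10 counts required in every library, it was not tested and none of the 10 genes left in the class was called. B3galt6 lies on chromosome 4 from 155989466 to 155992650 on the minus strand. The neighboring steps of the linker were not called. Xylt2, which adds the first xylose, had a log2 fold change of -0.57 (adjusted p = 0.141), and B4galt7, which adds the galactose before that of B3galt6, had 0.21 (adjusted p = 0.673).

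With all 6 libraries, none of the polymerase genes was called. Ext1 and Ext2, which together polymerize heparan sulfate, had log2 fold changes of -0.21 and -0.02 (adjusted p = 0.453 and 0.943). Ext2, the most abundant of the class per length, had 105, 73.1 and 92.6 CPM in MA-10 and 84.6, 88.8 and 93.6 CPM in STARKO1 cells, with a sign that depended on the scaling. Of the chondroitin polymerase genes, Chsy1 had 0.26 (adjusted p = 0.610), Chpf 0.42 (adjusted p = 0.455) and Chpf2 -0.52. The median log2 fold change of the class was -0.02 (0.37 with scaling by library size alone), and its summed level was 36.3 to 57.5 CPM per kilobase in MA-10 and 41.7 to 44.4 in STARKO1 cells. DESeq2 called 1 of the 11 genes, against 28.4% of all genes. Of the 11, edgeR called 6 without MA-10 replicate 1, 5 of them higher, where 65.7% of all genes were called, 34.0% higher. Among the 5 were Chpf (1.16, adjusted p = 0.000272) and Chsy1 (0.80, adjusted p = 0.0197), and in that fit the estimate of Ext1 turned to 0.08 (adjusted p = 0.622).

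All 5 tested sulfotransferases of heparan sulfate had an estimate above 0, as had 5626 of all 11939 genes. Their median was 0.56, and 1 was called, which passed the filter only through the STARKO1 libraries. With at least 10 counts required in every library, none of the 4 genes left was called. Hs3st1, which adds the rare sulfate of the antithrombin-binding site, had 2, 5 and 6 counts in the MA-10 libraries and 112, 60 and 103 counts in the STARKO1 libraries. This corresponded to 0.115, 0.434 and 0.528 CPM against 4.82, 3.54 and 5.79 CPM, so that the gene was near the detection floor in MA-10 and well above it in STARKO1 cells. The mean rose 13.1-fold, from 0.359 ± 0.217 to 4.71 ± 1.13 CPM (log2 fold change 3.78, SE 0.496, adjusted p = 0.00921). Without MA-10 replicate 1, which was the lowest, the log2 fold change was 3.36, and the call was lost without STARKO1 replicate 1 and without STARKO1 replicate 3. Hs3st1 lies on chromosome 5 from 39613935 to 39755476 on the minus strand.

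The other 4 tested heparan sulfate sulfotransferases overlapped between the lines through MA-10 replicate 1 alone. Hs6st1 had 66.5, 20.2 and 23.8 CPM in MA-10 and 55.8, 53.3 and 54.4 CPM in STARKO1 cells (log2 fold change 0.56, SE 0.444, adjusted p = 0.369). Ndst1, which starts the modification of the chain, had 76.4, 26.3 and 32.5 CPM in MA-10 and 70.4, 71.6 and 72.6 CPM in STARKO1 cells (log2 fold change 0.66, SE 0.393, adjusted p = 0.246), and its paralog Ndst2 had 12.1, 8.59 and 7.40 against 11.9 to 13.0 CPM. In these 3 genes MA-10 replicate 1 was at or above the lowest STARKO1 library and the other MA-10 libraries were below all of them. The summed level of the class was 30.3, 12.2 and 14.9 CPM per kilobase in MA-10 and 28.6, 28.1 and 29.3 in STARKO1 cells. Without MA-10 replicate 1, all 5 were called higher, with a median log2 fold change of 1.37, in a fit that called 34.0% of all genes higher.

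The class with the most calls was that of the other carbohydrate sulfotransferases, where 3 of 5 were called higher, against 4.3% of all genes. The median log2 fold change was 1.96. Chst12 passed the filter only through the STARKO1 libraries. With at least 10 counts required in every library it was not tested, 2 of the 4 genes left were called and the median was 1.46. Chst2, which sulfates N-acetylglucosamine in lactosamine chains and is known from the ligands of L-selectin, had 1.66, 1.56 and 1.59 CPM in MA-10 and 12.7, 12.1 and 14.4 CPM in STARKO1 cells, from 18 to 29 and from 206 to 295 counts. All MA-10 libraries, replicate 1 included, were nearly equal and far below STARKO1. At such low counts in MA-10, this nearness does not measure the precision of its level. The mean rose 8.17-fold from 1.60 ± 0.052 to 13.1 ± 1.20 CPM (log2 fold change 3.02, SE 0.190, adjusted p = 0.0012), and Chst2 was called in all 6 fits that left out 1 library. It lies on chromosome 9 from 95399292 to 95406723 on the minus strand.

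Chst3 and Chst12 sulfate the N-acetylgalactosamine of chondroitin at different positions. Chst3 had 6.53, 1.74 and 3.35 CPM in MA-10 and 17.2, 13.1 and 18.5 CPM in STARKO1 cells. The mean rose 4.21-fold from 3.87 ± 2.44 to 16.3 ± 2.79 CPM without overlap (log2 fold change 2.04, SE 0.443, adjusted p = 0.0399), with MA-10 replicate 1 nearest to STARKO1 and a log2 fold change of 2.77 without it. Chst12 had 0.859, 0.520 and 0.528 CPM in MA-10 and 2.54, 2.36 and 2.75 CPM in STARKO1 cells, from 6 to 15 and from 40 to 59 counts. Its mean rose 4.01-fold from 0.636 ± 0.193 to 2.55 ± 0.198 CPM, again without overlap (log2 fold change 1.96, SE 0.314, adjusted p = 0.0180, and 2.35 without MA-10 replicate 1). Among the 6 fits that left out 1 library, Chst3 was called in the one without MA-10 replicate 1 and Chst12 in those without MA-10 replicate 1 and without MA-10 replicate 2. The genes lie on chromosome 10 from 60181532 to 60219261 on the minus strand and on chromosome 5 from 140505550 to 140525725 on the plus strand.

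The balance within the class shifted accordingly. Chst14, which sulfates dermatan and was the most abundant per length, had 12.3, 7.20 and 5.37 CPM in MA-10 and 8.73, 8.78 and 8.88 CPM in STARKO1 cells (log2 fold change 0.08, SE 0.306, adjusted p = 0.864). Its share of the summed level per kilobase went from 61.3% to 72.6% in the MA-10 libraries to 36.6% to 39.0% in the STARKO1 libraries, while that of Chst2 went from 2.57% to 5.16% to 15.4% to 16.99%. The summed level itself was 8.83, 4.74 and 4.19 CPM per kilobase in MA-10 and 11.1, 10.8 and 11.6 in STARKO1 cells. Chst11, which shares the reaction of Chst12, had a log2 fold change of 0.84 (adjusted p = 0.130).

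Members differed more between the MA-10 libraries than between the STARKO1 libraries, which was not particular to them. Across genes, the MA-10 libraries correlated with each other at r = 0.802 to 0.974 and the STARKO1 libraries at 0.995 to 0.996. The median ratio of SD to mean over the tested members was 0.270 in MA-10 and 0.0625 in STARKO1 cells, and it was larger in MA-10 for 65 of 69. This ratio was not taken over all genes. For 44 of 69 members (63.8%), MA-10 replicate 1 was nearer to the STARKO1 mean than the mean of the other MA-10 libraries was, and the same was true of 73.1% of all genes. Mgat4c and Chst2, with the smallest p of the members, differed about as much from STARKO1 in replicate 1 as in the other MA-10 libraries.

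**Figure D4:**
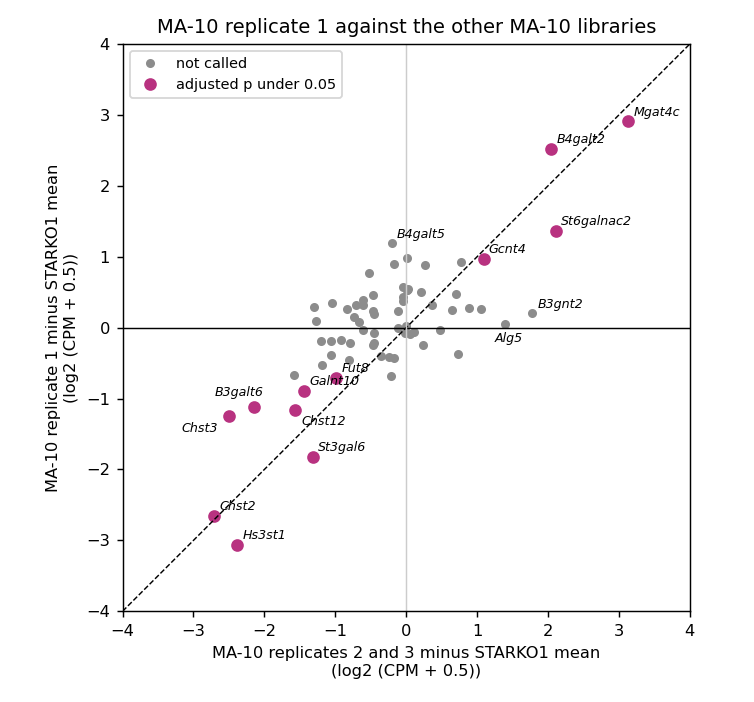
Difference from the STARKO1 mean, in log2(CPM + 0.5), of MA-10 replicate 1 (vertical axis) against that of the mean of MA-10 replicates 2 and 3 (horizontal axis), 1 point for each of the 69 tested members. Points on the dashed line differ equally, points nearer to the horizontal line are nearer to STARKO1 in replicate 1, and the 12 differentially expressed members are the larger points. Mgat4c and Chst2 lie close to the dashed line, whereas B3gnt2 and Alg5 lie near the horizontal line.

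The number of calls moved with the library left out. Without MA-10 replicate 1, 48 of 70 members were called, 35 higher and 13 lower, in a fit that called 65.7% of all genes, 34.0% higher and 31.7% lower, and the 12 members above were all among them. Without MA-10 replicate 2 there were 8 calls (4.19% of all genes) and without MA-10 replicate 3 there were 4 (1.49%). Without STARKO1 replicate 1, 2 or 3 there were 2, 4 and 2 calls, where 0.73%, 1.11% and 0.76% of all genes were called. Chst2 and Mgat4c were called throughout.

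Other genes of glycosylation were examined by lists outside the symbol rule, and 11 of their 114 tested genes were called, a share of 9.65% that is close to the 9.04% of all genes and so no result about the lists. There were 80 calls without MA-10 replicate 1, in a fit that called 65.7% of all genes. The called genes are given as single genes. The donors of the transferases are nucleotide sugars. Of the 26 tested genes for their synthesis, 2 were lower and none was higher, namely Ugdh, which makes the glucuronic acid donor of glycosaminoglycans (54.1, 135 and 80.7 CPM in MA-10, 35.3, 30.8 and 32.6 CPM in STARKO1, log2 fold change -1.45, adjusted p = 0.0439), and Galk1, the galactose kinase (-0.68, adjusted p = 0.0457). Neither Ugdh nor Galk1 was called without MA-10 replicate 2 or 3, or with any STARKO1 library left out. None of the 13 transporters that bring these donors into the Golgi was called. Among them, 5 had an unadjusted p under 0.05 (37.6% of all genes), DESeq2 called 3 (28.4% of all genes) and edgeR without MA-10 replicate 1 called 11 (65.7% of all genes). Of 11 genes that make or use dolichol outside the Alg genes, the dolichol kinase Dolk was higher, with 5.05 ± 0.952 and 11.7 ± 0.872 CPM (log2 fold change 1.21, adjusted p = 0.0215). None of the 12 tested subunits of the oligosaccharyltransferase, which moves the finished oligosaccharide to protein, was called. Their median log2 fold change was -0.997, 6 had an unadjusted p under 0.05, all lower, and DESeq2 called 6, while over all genes 22.7% were lower at such a p and DESeq2 called 28.4%. With scaling by library size alone the median was -0.42. It was -1.24 without MA-10 replicate 1, and 10 of the 12 were called, 3 higher and 7 lower, where 65.7% of all genes were called. For each of the 6 subunits lower at an unadjusted p under 0.05, MA-10 replicate 1 lay near the STARKO1 mean, at -0.13 to 0.42 from it in log2(CPM + 0.5). The mean of MA-10 replicates 2 and 3 lay 1.22 to 3.19 above it, so these falls rested on replicates 2 and 3. Of 7 genes that trim N-glycans, Man2a2 was lower (-0.82, adjusted p = 0.0430), a call that was lost with upper quartile scaling.

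Chondroitin chains are started by Csgalnact1 and Csgalnact2, which moved in opposite directions. Csgalnact1 had 0.687, 0.347 and 0.704 CPM in MA-10 and 2.88, 2.42 and 2.81 CPM in STARKO1 cells (log2 fold change 2.19, SE 0.337, adjusted p = 0.0155). The more abundant Csgalnact2 had 33.9, 36.5 and 44.2 CPM in MA-10 and 24.3, 22.2 and 22.5 CPM in STARKO1 cells (log2 fold change -0.73, SE 0.163, adjusted p = 0.0425). These were 2 of the 9 tested glycosaminoglycan genes outside the rule. No gene of this list was called lower with upper quartile scaling or without MA-10 replicate 2. With at least 10 counts required in every library, none of its 7 genes left was called. Of 11 tested proteoglycan core proteins, Cspg4, a cell surface chondroitin sulfate proteoglycan, was called, with 1, 1 and 0 counts in MA-10 and 76, 53 and 54 counts in STARKO1 cells (adjusted p = 0.00268). Among 17 genes of other protein O-glycosylation, the enzymes that add and remove single N-acetylglucosamine residues on nuclear and cytosolic proteins differed in opposite directions, with Ogt at 15.6 ± 4.21 and 45.0 ± 7.44 CPM (log2 fold change 1.53, adjusted p = 0.0198) and Oga at 77.1 ± 10.8 and 40.2 ± 4.42 CPM (-0.94, adjusted p = 0.0276). Of the 8 subunits of the COG complex, which keeps glycosyltransferases in place in the Golgi, Cog2 was higher, with 44.0 ± 4.52 and 103 ± 11.5 CPM (log2 fold change 1.22, adjusted p = 0.0107). The lines did not overlap for any of these called genes. Csgalnact1 and Cspg4 passed the filter only through the STARKO1 libraries. Without STARKO1 replicate 1, 2 or 3, 1 proteoglycan core gene was the only call in the lists outside the symbol rule.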

How the data were processed

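Total RNA of untreated MA-10 and STARKO1 cells (3 libraries each) was extracted with a Qiagen kit and sequenced from stranded SMARTer Pico libraries. The authors deposited estimated counts per gene, not normalized and not pooled. The submitters' processing notes name STAR 2.6.1d, Partek and mm10, without roles, and the strand setting of the counting is not given in the sources used here. Values that were not whole occurred in 8007 of the 14774 genes (54.2%), and 14677 genes were found in GENCODE M21 (GRCm38).

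The estimated counts were rounded and tested over all genes in R 4.3.3 with edgeR 4.0.16 (filterByExpr, TMM, quasi-likelihood test, all 6 libraries, no covariate, Benjamini-Hochberg adjustment over 11939 genes, calls at an adjusted p under 0.05). CPM are on the TMM-scaled library size. Standard errors were obtained from the log2 fold change and the F statistic. Exon length came from GENCODE. The alternatives were DESeq2 1.42.0, upper quartile scaling, library size alone, removal of the 50 most abundant genes, no filter, at least 10 counts in every library, thinned counts, a replicate block, other thresholds and each library left out. Tables and figures used Python 3.11.15, pandas 2.3.3 and matplotlib 3.10.9.

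The members and lists were chosen with earlier results of these data known. Members were named if called, if highest per length in their class, if uncalled with at least 2-fold change and no overlap (3 genes met this), or as paralogs of these. Up to 4 called genes were named per other list, except for 1 that is not reported here. Mgat1, Mgat2, Galnt1, Galnt7, Galnt11, B4galt1, B4galt4, B4galt7, St6gal1, St6galnac6, Chst11, Alg5 and the overlapping genes were chosen after their values were seen.

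Total counts of 14114349 to 19530054 left little counting error for most members, and the common biological coefficient of variation was 0.291. On simulated counts (11839 genes), 15.3% of the 2-fold and 95% of the 4-fold changes were recovered, with 3.51% false calls. The simulation gave every gene of both lines the same coefficient of variation, and no library stood apart. In the data the median ratio of SD to mean of members was 0.270 in MA-10 and 0.0625 in STARKO1 cells. These rates therefore do not describe the real comparison. Lipid, steroid, protein and qRT-PCR measurements of the study were not analysed here.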

Additional observations from a re-analysis of the deposited data

How the results depend on the processing

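Against the 12 calls among members (8 higher, 4 lower), DESeq2 gave 23 (13 higher, 10 lower) and library size alone 7 (4 higher). A minimum of 10 counts in every library gave 5 higher members, as Hs3st1, B3galt6 and Chst12 were then not tested. An adjusted p under 0.1 gave 23 calls, and the share of all genes at that threshold was not counted. Leaving out 1 library gave 2 to 48 calls, 1 to 35 higher and 1 to 13 lower, for the lists 1 to 80 calls against 11, and for all genes 89 to 7990 against 1079. For the lists, DESeq2 gave 34, library size alone 3 and a minimum of 10 counts 5 calls, and for all genes 3395, 330 and 695. A replicate block left 6 members (3 higher), 2 list genes and 234 genes called. Same-numbered libraries deviated from their line means with correlations of -0.017, 0.045 and 0.020, and MA-10 replicate 1 correlated best with STARKO1 replicate 3, so the numbers were not taken to pair the libraries. The sign turned for Ext2 with upper quartile scaling (0.11), library size alone (0.37), removal of the 50 most abundant genes (0.0112), no filter (0.034), a minimum of 10 counts (0.0047), without MA-10 replicate 1 (0.19) and without STARKO1 replicate 1 (0.10). It turned for St3gal5 with upper quartile scaling (0.0672), library size alone (0.40) and without MA-10 replicate 2 (0.012), and for Chst14 without MA-10 replicates 2 (-0.02) and 3 (-0.15), in a range up to 0.57 without MA-10 replicate 1. Among the other genes followed through these alternatives (called, highest in class, or uncalled with 2-fold change), none changed direction. Paralogs were followed only without MA-10 replicate 1, where St3gal3, Fut11, B4galt5, Ext1 and Pofut2 turned positive. Library size alone moved the median of all genes by 0.43, upper quartile scaling by 0.15 and leaving out MA-10 replicate 1 by 0.11, and the cause of the other differences was not tested. Where a line kept 2 libraries, the fit pooled the spread over both lines. In MA-10, counts of Hs3st1, B3galt6, Chst12, Chst2 and St3gal6 under about 30 limit their fold changes, as do those of B4galt2 in STARKO1 cells.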
